A study of Mus musculus with 4 samples.

Results

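The genes described here make glutathione, bring in the cystine it is built from, recycle it and spend it. They are Slc7a11, Gclc, Gclm, Gss, Gsr, Glrx, Gpx4 and Aifm2, 8 genes of the 24789 named on the array. The 8 genes were chosen by name for their place in this pathway, with earlier results of these data known. The 8 genes are read by 13 of the 56605 probes. The arrays measured messenger RNA in RAW264, a mouse macrophage-like cell line derived from a BALB/c tumour. Of the 4 cultures, 1 received siRNA against Tfe3 and Tfeb and 500 µM ferric chloride, 1 the same siRNA without iron, 1 siRNA against GFP with 500 µM ferric chloride, and 1 siRNA against GFP without iron. Iron was given for 24 h, begun 48 h after transfection. All 4 cultures were transfected, so none shows untransfected cells. Tfe3 and Tfeb are transcription factors of lysosome and stress genes, and the design asks how the response to iron differs when they are reduced.

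Glutathione is a tripeptide of glutamate, cysteine and glycine, and cysteine is the amino acid that limits its supply. Cells import cystine in exchange for glutamate, reduce it to cysteine, join cysteine to glutamate, and then add glycine. Glutathione keeps protein thiols reduced and feeds the peroxidases that remove peroxides, lipid peroxides among them. Iron drives lipid peroxidation, and cell death by iron-dependent lipid peroxidation is called ferroptosis. In macrophages, which take up iron from engulfed red cells, the transcription factors Nrf2 (Nfe2l2) and Atf4 are known to control genes of this pathway.

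Each group is 1 array, so no difference between groups has a replicate check and no p-value is given. The arrays of RNA labelled with 1 dye were set level by their 75th percentile, which was a processed signal of 593 to 636. Signals are compared for 1 probe across arrays, never between probes. Processed signals are printed as they were before this step. The log2 differences, folds, percentages of siGFP and array orders were taken after it. A small difference can therefore have another size, or even sign, than the printed signals show, as for Gpx4 and Gss. The error beside a log2 difference is the spot SD, the spread of 300 probes printed 10 times on each array and of the spike-in controls, at a like signal. The spot SD holds spotting and scanning error within an array and no difference between cultures. It was taken in bins of level, the log2 signal minus the 75th percentile. Each value behind it is 1 probe on 1 array. There were 1080 values above level 4, but 10 at 2 to 4, 16 at 0 to 2 and 10 at -2 to 0. The main probes of the genes lay in these sparse bins, except Gpx4, and Gsr on the siTfe3/Tfeb iron array. For them, statements of within or beyond 2 spot SDs rest on few values. The scanner software's own error estimate, when carried to a log2 difference, was larger, at about 0.20 for each member. All 10 macrophage markers were well above background on all 4 arrays, with a summed signal of 562979 to 661424. Among markers of other cells, 1 of 5 for fibroblasts, 0 of 4 for epithelium, 1 of 3 for endothelium and 2 of 5 for lymphocytes were. On the arrays labelled siTfe3/Tfeb, Tfe3 signal was 68.4% of that in siGFP cells with iron and 60.6% of it without iron, and Tfeb signal was 112% with iron and 91.0% without. Thus the Tfeb probe gave no lower signal with iron. Without iron its log2 difference of -0.14 was within 2 spot SDs (spot SD 0.12), so no lower Tfeb signal beyond that error was seen. Every siRNA comparison below is of libraries labelled siTfe3/Tfeb.

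Iron-treated cells held more Slc7a11 and Gclm RNA in both siRNA groups, by at least 2-fold each on the main probe. For Slc7a11 in siGFP cells this was borderline, at a log2 difference of 1.03, and it was 0.71 to 0.91 in some other settings. Slc7a11, Gclm, Gclc, Gsr and Glrx were all higher with iron, whereas Gss, Gpx4 and Aifm2 stayed within 2 spot SDs of their untreated signal. Beyond 2 of the scanner's error estimates were 5 genes in siTfe3/Tfeb cells and 3 in siGFP cells, where Gclc and Gsr were not. The share of all genes beyond either error was not computed, so such counts cannot be set against other genes. In iron-treated against untreated siTfe3/Tfeb cells, 2 of the 8 genes had at least 2-fold more signal and 0 had 2-fold less, beside 1.61% and 0.454% of all genes measured on both arrays. In iron-treated against untreated siGFP cells, the counts were also 2 of 8 and 0 of 8, beside 1.4% and 0.267%. Slc7a11 left that count with normexp background correction or when all probes were averaged. The median log2 difference of the 8 genes was 0.65 in siTfe3/Tfeb cells and 0.33 in siGFP cells, where the median of all genes was -0.0067 and -0.020. The brightest probe of each of the 8 genes was well above background on every array. In bulk RNA a change in the number of cells that express a gene and a change in RNA per cell cannot be told apart.

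**Figure D1:**
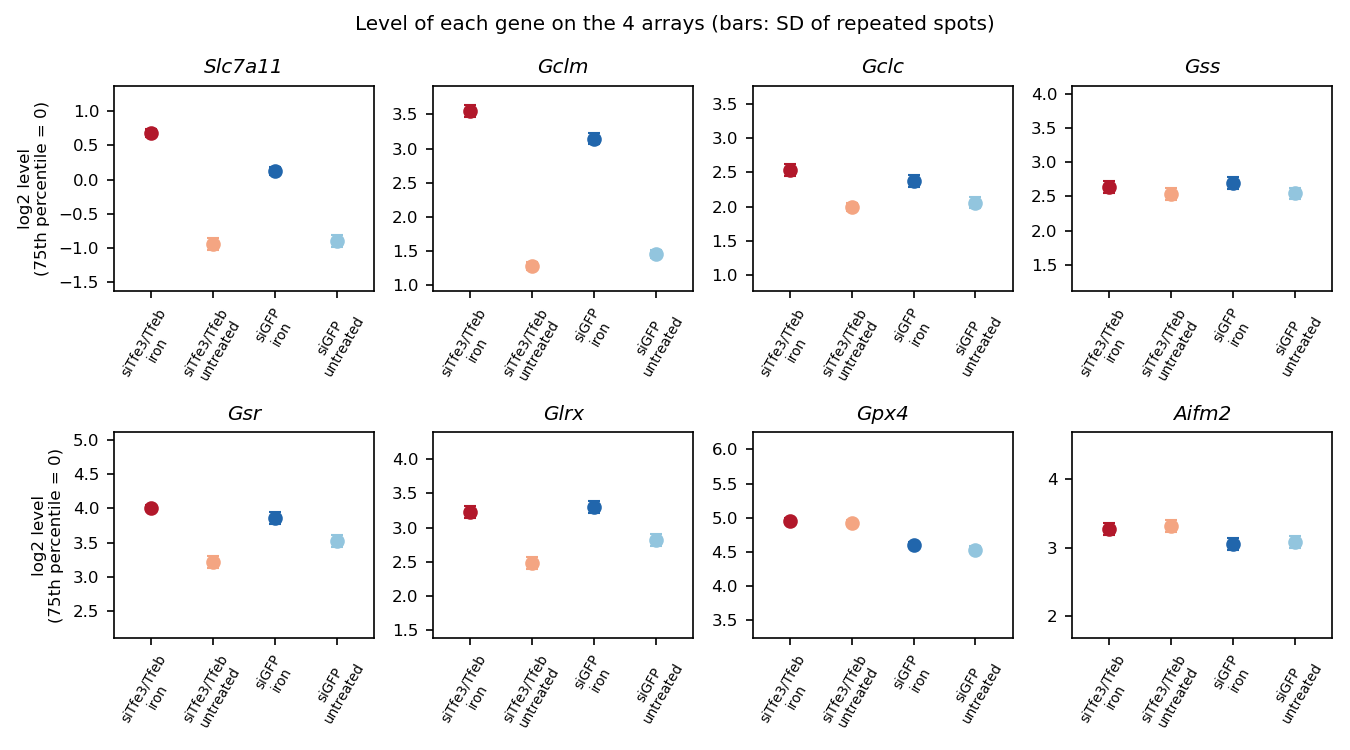
Level of each gene on each array, as log2 processed signal minus the 75th percentile of that array, for siTfe3/Tfeb iron, siTfe3/Tfeb untreated, siGFP iron and siGFP untreated. Each point is 1 array and bars are the spot SD. Slc7a11 and Gclm are higher on both iron arrays than on both untreated arrays, by 1.03 or more.

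Cystine enters through the product of Slc7a11, the transporter subunit of system xc-. Its main probe (NCBI37/mm9, chr3:50176047-50176106, minus strand) gave a processed signal of 953 with iron and 330.0 without in siTfe3/Tfeb cells, against 687 with iron and 333 without in siGFP cells. The untreated arrays lay together, within the spot SD, the siGFP iron array lay above them, and the siTfe3/Tfeb iron array was the highest. Iron-treated signal was 3.10-fold the untreated signal in siTfe3/Tfeb cells, a log2 difference of 1.63 (spot SD 0.11), and ranked 69 of 14083 genes from the top. In siGFP cells it was 2.04-fold, a log2 difference of 1.03 (spot SD 0.11), and ranked 190 of 14239. That last value lay close to 2-fold, and was 0.91 with normexp background correction, 0.90 with normexp and quantile normalization, and 0.71 when all Slc7a11 probes were averaged.

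Slc7a11 is read by further probes, which differ in brightness. The second probe (chr3:50169700-50169759) gave 172 with iron and 82.7 without in siTfe3/Tfeb cells, against 142 with iron and 85.6 without in siGFP cells. The order of the arrays by iron was that of the main probe, but the log2 differences were smaller, at 1.16 in siTfe3/Tfeb cells (spot SD 0.20) and 0.72 in siGFP cells (spot SD 0.26). The third (chr3:50246786-50246845), designed on another transcript of the gene, was well above background only on the iron arrays, at 33.4 in siTfe3/Tfeb cells and 24.3 in siGFP cells. Its iron-treated signal was set against the lowest signal of any probe that counted as well above background on the untreated array. It was 1.75-fold that signal in siTfe3/Tfeb cells and 1.11-fold in siGFP cells. These log2 differences of 0.81 and 0.15 were within 2 spot SDs (spot SD 0.68). The floor is not this probe's own limit, so no size of iron response is given for it. The last (chr3:50221136-50221195) was not well above background on any array.

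**Figure D2:**
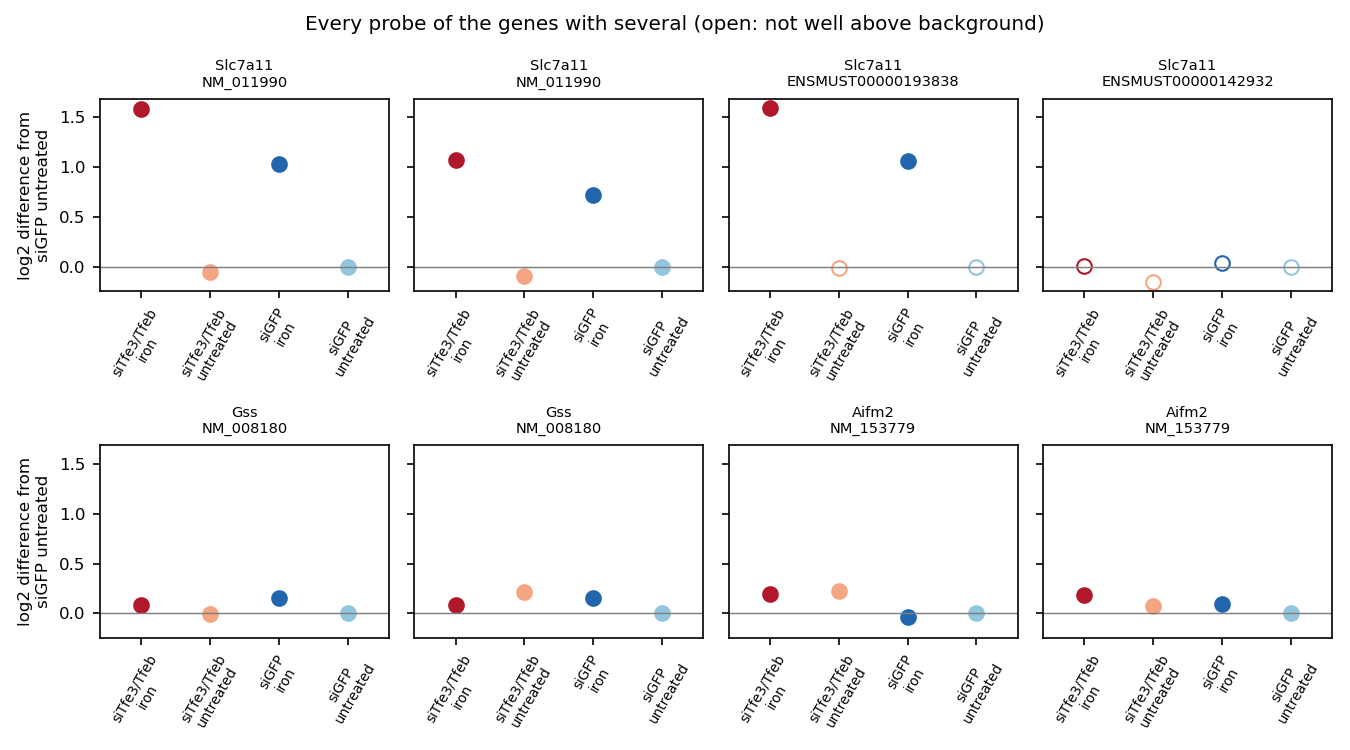
log2 difference from the siGFP untreated array for every probe of the genes that have more than 1. Each point is 1 array, in the order siTfe3/Tfeb iron, siTfe3/Tfeb untreated, siGFP iron, siGFP untreated. Open points are not well above background. The brightest Slc7a11 probes are higher on the iron arrays, whereas the probes of Gss and Aifm2 are near level.

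Cysteine is joined to glutamate by glutamate-cysteine ligase, the rate-limiting enzyme, made of the catalytic subunit Gclc and the modifier subunit Gclm, which makes the catalytic subunit more active. The Gclm probe (chr3:121967737-121967796, plus strand) gave 6966 with iron and 1541 without in siTfe3/Tfeb cells, against 5553 with iron and 1709 without in siGFP cells. Both iron arrays were far above both untreated arrays, and the siTfe3/Tfeb arrays were at both ends of the order. Iron-treated Gclm was 4.85-fold the untreated signal in siTfe3/Tfeb cells (log2 difference 2.28, spot SD 0.10), rank 21 of 14083 genes, and 3.21-fold in siGFP cells (1.68, spot SD 0.10), rank 51 of 14239. No other gene of the 8 had a range over the 4 arrays as wide as the 2.28 of Gclm.

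The catalytic subunit did less. The Gclc probe (chr9:77641296-77641355, plus strand) gave 3437 with iron and 2527 without in siTfe3/Tfeb cells, against 3250.5 with iron and 2578 without in siGFP cells. Both iron arrays were above both untreated arrays, and within each pair the arrays lay within 2 spot SDs. The log2 difference with iron was 0.55 in siTfe3/Tfeb cells (1.46-fold, spot SD 0.10) and 0.32 in siGFP cells (1.25-fold, spot SD 0.12), below 2-fold in both. In siGFP cells 0.32 was also under 2 of the scanner's error estimates.

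Gss encodes glutathione synthetase, which adds glycine in the last step. Its main probe (chr2:155388927-155388986, minus strand) gave 3677 with iron and 3687 without in siTfe3/Tfeb cells, against 4064 with iron and 3613 without in siGFP cells. After the arrays were set level, the log2 difference with iron was 0.099 in siTfe3/Tfeb cells and 0.15 in siGFP cells (spot SD 0.12 each). The range over the arrays was 0.16 on the log2 scale, the narrowest of the 8 genes, and no neighbours in the order differed beyond the spot SD. The second Gss probe, which spans chr2:155390637-155392549, gave 439 and 517 with and without iron in siTfe3/Tfeb cells, against 488 and 434 in siGFP cells, and its log2 difference with iron was -0.13 and 0.15 in those cells.

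The promoters of Slc7a11 and Gclm, the genes that were at least 2-fold higher with iron, are shown with the letters of motifs known for the factors named above. They are the 250 bases before the annotated start, 5′ to 3′ on the strand of the gene, from RefSeq (GRCm38.p6), with each match in capitals. Slc7a11 is chr3:50443614-50443863 on the minus strand and Gclm is chr3:122245307-122245556 on the plus strand.
Slc7a11: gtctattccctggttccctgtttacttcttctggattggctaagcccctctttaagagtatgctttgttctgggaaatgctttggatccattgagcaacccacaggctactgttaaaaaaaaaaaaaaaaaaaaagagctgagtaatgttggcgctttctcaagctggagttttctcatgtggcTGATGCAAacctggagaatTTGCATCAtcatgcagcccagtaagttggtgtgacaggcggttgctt
Gclm: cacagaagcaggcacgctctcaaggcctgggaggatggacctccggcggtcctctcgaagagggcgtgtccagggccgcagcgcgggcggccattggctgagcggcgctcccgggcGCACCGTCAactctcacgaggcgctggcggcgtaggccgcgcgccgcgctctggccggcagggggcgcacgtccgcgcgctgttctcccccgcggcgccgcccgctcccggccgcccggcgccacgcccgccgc
The motifs, sought on both strands from 250 bases before to 50 after the start, were TGACNNNGC, the core of the antioxidant response element that Nrf2 binds, TGATGNAA, the core of the element that Atf4 binds with a C/EBP partner, and CACGTG, the E-box form that Tfe3 and Tfeb bind. No match of 1 motif overlapped a match of another. The Slc7a11 window held TGATGNAA on both strands, as TGATGCAA at positions -66 to -59 and as TTGCATCA at positions -47 to -40 from the start. The Gclm window held TGACNNNGC on the minus strand, as GCACCGTCA at positions -134 to -126. Of 32851 promoter windows of all genes, 12.4% held TGACNNNGC, 3.97% TGATGNAA and 7.15% CACGTG. RefSeq windows were given for 6 of the 8 genes, 10 windows in all, of which 1 held TGACNNNGC, 1 TGATGNAA and 0 CACGTG. Gclc and Gsr have no entry in that table. A match describes these letters only, and was not tested as a binding site.

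Among the genes that recycle and use glutathione, Gsr and Glrx followed iron, to a smaller degree than Slc7a11 and Gclm, whereas Gpx4 did not. Gsr, glutathione reductase, which restores reduced glutathione with NADPH, gave 9523 with iron and 5898 without in siTfe3/Tfeb cells, against 9105 with iron and 7132 without in siGFP cells (probe at chr8:34808488-34808547, plus strand). The iron arrays lay within 2 spot SDs of each other, and the untreated siTfe3/Tfeb array was the lowest, 0.31 below the untreated siGFP array (spot SD 0.12). The log2 difference with iron was 0.79 in siTfe3/Tfeb cells (1.73-fold, spot SD 0.097) and 0.33 in siGFP cells (1.26-fold, spot SD 0.12). The 0.33 in siGFP cells and the 0.31 between the untreated arrays were under 2 of the scanner's error estimates.

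Glrx encodes glutaredoxin, which takes glutathione off protein thiols. Its probe (chr13:75986983-75987042, plus strand) gave 5537 with iron and 3547 without in siTfe3/Tfeb cells, against 6195 with iron and 4368 without in siGFP cells. As for Gsr, the untreated siTfe3/Tfeb array was the lowest. The iron arrays of Glrx lay within the spot SD of each other. The log2 difference with iron was 0.74 in siTfe3/Tfeb cells (1.68-fold) and 0.49 in siGFP cells (1.40-fold), each with a spot SD of 0.12.

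Gpx4 and Aifm2 encode the enzymes best known for stopping ferroptosis. Gpx4 reduces lipid hydroperoxides with glutathione, and Aifm2, also called FSP1, reduces coenzyme Q at membranes without glutathione. Gpx4 (chr10:79518691-79518842, plus strand) gave 18449 with iron and 19346 without in siTfe3/Tfeb cells, against 15249 with iron and 14377 without in siGFP cells. Here the arrays fell in order by siRNA and not by iron, with both siTfe3/Tfeb arrays above both siGFP arrays. After the arrays were set level, the log2 difference with iron was 0.034 in siTfe3/Tfeb cells and 0.068 in siGFP cells (spot SD 0.063). In iron-treated cells the siRNA difference was 0.36, against 0.39 without iron (spot SD 0.063 each). Both siRNA differences were under 2 of the scanner's error estimates.

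Aifm2 (chr10:61201320-61201379, plus strand) gave 5755 with iron and 6345 without in siTfe3/Tfeb cells, against 5203 with iron and 5271 without in siGFP cells. Both siTfe3/Tfeb arrays were above both siGFP arrays, by less than 2 spot SDs at the nearest pair. The log2 difference with iron was -0.039 in siTfe3/Tfeb cells and -0.036 in siGFP cells, each inside the spot SD of 0.12. Its second probe (chr10:61198346-61198405) ranged over 258 to 281 on the 4 arrays. The positions of all probes are those of the array design in mm9, and their exon or untranslated region was not analysed here.

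**Figure D3:**
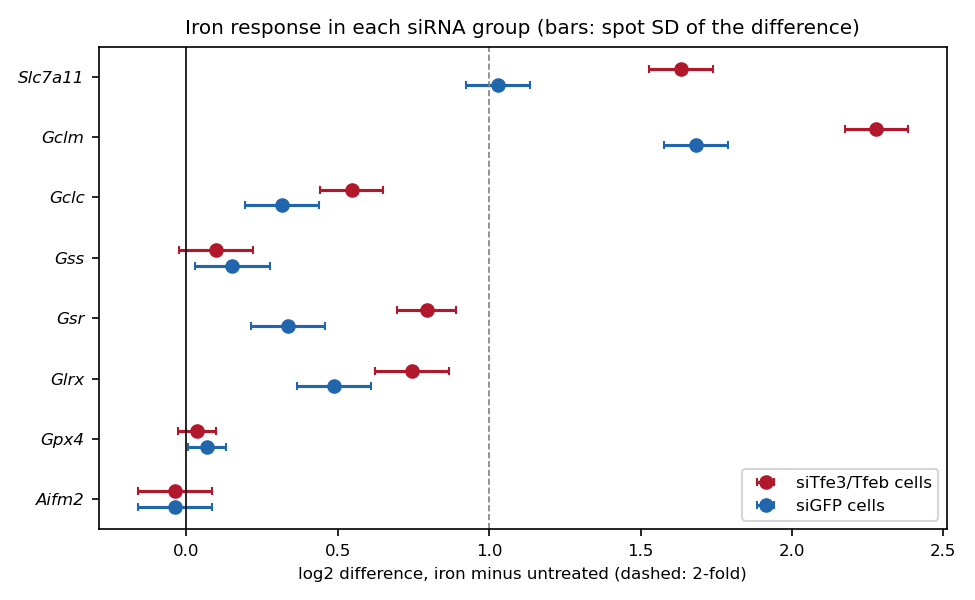
log2 difference of iron-treated minus untreated cells for each gene, in siTfe3/Tfeb cells and in siGFP cells. Points are differences of 1 array each, bars are the spot SD and the dashed line is 2-fold. Gclm (2.28 and 1.68) and Slc7a11 (1.63 and 1.03) lie past 2-fold in both, and Gss, Gpx4 and Aifm2 lie near 0.

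The difference between the iron responses, siTfe3/Tfeb minus siGFP, was above 0 for 5 of the 8 genes, beside 50.0% of all genes. It was 0.60 for Slc7a11 (spot SD 0.15), 0.60 for Gclm (spot SD 0.15) and 0.46 for Gsr (spot SD 0.16), and these were the genes beyond 2 spot SDs. Only Slc7a11 and Gclm were also beyond 2 of the scanner's error estimates, which are 0.29 for a difference of responses. Slc7a11 ranked 323 and Gclm 335 of the 13825 genes that stood well above background on every array. For Glrx the difference was 0.26 and for Gclc 0.23, within 2 spot SDs, and for Gss, Gpx4 and Aifm2 it lay between -0.053 and -0.0024. Of the 8 genes 0 differed by 2-fold in either direction, beside 0.282% of all genes higher and 0.347% lower. The median of the 8 genes was 0.24, and that of all genes 0.00022.

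The same 4 arrays give the siRNA difference at each iron state, so these values are not separate evidence. With iron, Slc7a11 was 0.55 higher in siTfe3/Tfeb than in siGFP cells (1.47-fold, spot SD 0.084), Gclm 0.41 higher (spot SD 0.12) and Gpx4 0.36 higher. Without iron, Slc7a11 differed by -0.050 (spot SD 0.12) and Gclm by -0.19 (spot SD 0.084), whereas Gsr and Glrx differed by -0.31 and -0.34 (spot SD 0.12 each). Beyond 2 of the scanner's error estimates lay 1 of the 8 genes with iron, Slc7a11, and 0 without iron. With iron 6 of the 8 genes were above 0, beside 47.2% of all genes, and 3 of the 8 differed beyond 2 spot SDs in either direction. Without iron 2 of the 8 were above 0, beside 46.6% of all genes, and 4 differed beyond 2 spot SDs. For counts beyond an error, the share of all genes was not computed. At neither iron state did any member reach 2-fold, so the count was 0 of 8 in each direction. Among all genes 0.834% were at least 2-fold higher and 1.33% lower in siTfe3/Tfeb cells with iron, and 1.39% higher and 1.82% lower without iron. The median of the 8 genes was 0.19 with iron and -0.059 without, and that of all genes -0.020 and -0.028.

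**Figure D4:**
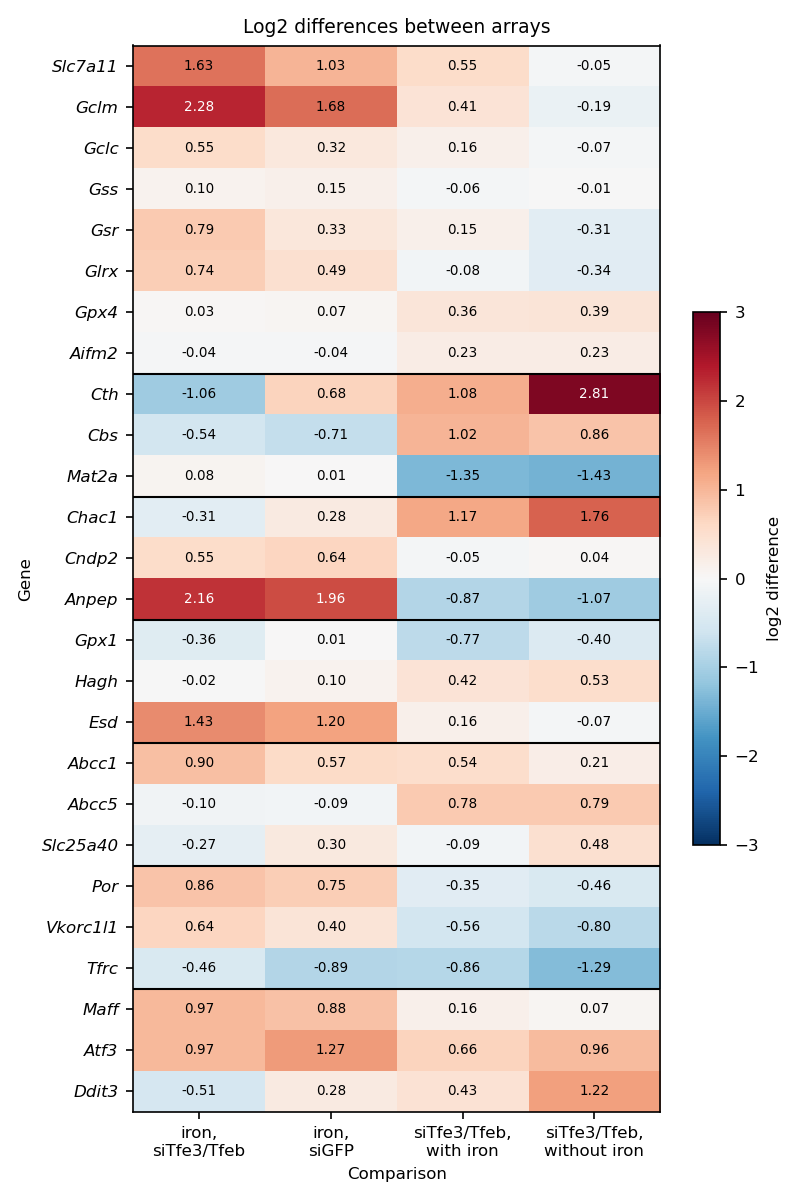
log2 differences in the 4 pairwise comparisons, with the value in each cell. Rows are the 8 genes, then the 3 genes of each related list with the largest difference. Among the 8 genes, the columns of the iron responses hold the 4 values past 1, those of Gclm and Slc7a11.

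Other genes of the pathway were grouped by role, and most stayed below 2-fold with iron. Among 9 genes of cysteine supply, the median log2 difference with iron was -0.011 in siTfe3/Tfeb cells and 0.24 in siGFP cells, with 1 gene at least 2-fold lower in siTfe3/Tfeb cells and 0 past 2-fold in siGFP cells. That gene was Cth, cystathionine gamma-lyase, which releases cysteine from cystathionine. Its signal was 264 with iron and 589 without in siTfe3/Tfeb cells, against 132 with iron and 81.7 without in siGFP cells, so both siTfe3/Tfeb arrays were above both siGFP arrays. The siRNA difference of Cth was 1.08 with iron (spot SD 0.20) and 2.81 without iron (spot SD 0.20). With normexp, Cth was below 2-fold at -0.89 for iron in siTfe3/Tfeb cells and at 0.79 for the siRNA with iron.

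Cbs, cystathionine beta-synthase, the step before Cth, was also higher in siTfe3/Tfeb cells, by 1.02 with iron (spot SD 0.20), or 0.76 with normexp, and 0.86 without (spot SD 0.12). Mat2a, which makes S-adenosylmethionine from methionine, was lower in siTfe3/Tfeb cells, at 5722 with iron and 5799 without, against 15466 with iron and 15192 without in siGFP cells. Its 4 signals split by siRNA, with almost no difference by iron. Slc3a2, the heavy chain that carries the Slc7a11 protein to the membrane, differed with iron by -0.0019 in siTfe3/Tfeb cells and by 0.35 in siGFP cells.

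Of 14 genes of glutathione breakdown and salvage, 10 were measured, and Ggt1, Ggt6, Ggt7 and Dpep1 were well above background on no array. In each siRNA group 1 of the 10 was at least 2-fold higher with iron and 0 lower, and the median was 0.023 in siTfe3/Tfeb cells and -0.094 in siGFP cells. It was Anpep, an aminopeptidase that splits cysteinylglycine, a product of glutathione breakdown, with 4091 with iron and 982 without in siTfe3/Tfeb cells, against 7904 with iron and 2001 without in siGFP cells. Iron divided the Anpep arrays, and each siTfe3/Tfeb array was below its siGFP match. Chac1, which cleaves glutathione inside the cell and is a target of Atf4, was 1.17 higher in siTfe3/Tfeb cells with iron (spot SD 0.084) and 1.76 higher without (spot SD 0.10). Cndp2, a dipeptidase of the same route, differed with iron by 0.55 in siTfe3/Tfeb cells and 0.64 in siGFP cells.

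Of 12 genes that use glutathione 9 were measured, and 1, Esd, was at least 2-fold higher with iron in both siRNA groups. The median of the 9 with iron was -0.012 in siTfe3/Tfeb cells and 0.095 in siGFP cells. Esd is an esterase that releases glutathione from S-formylglutathione. It gave 52523 with iron and 20943 without in siTfe3/Tfeb cells, against 49621 with iron and 21335 without in siGFP cells. Gpx1, the cytosolic glutathione peroxidase, differed between the siRNA groups by -0.77 with iron and -0.40 without, lower in siTfe3/Tfeb cells. Hagh, a glyoxalase, differed between the siRNA groups by 0.42 with iron and 0.53 without. Among 8 measured transporters of 9 0 were past 2-fold in any of the 5 comparisons, and the median with iron was -0.10 in siTfe3/Tfeb cells and -0.057 in siGFP cells. The farthest were Abcc1, an exporter of glutathione conjugates, which differed with iron by 0.90 in siTfe3/Tfeb cells and 0.57 in siGFP cells, and Abcc5, whose siRNA difference was 0.78 with iron and 0.79 without.

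Among 12 measured genes of lipid peroxidation and ferroptosis, of 14, 0 were past 2-fold with iron in either siRNA group, and the median difference was 0.27 in siTfe3/Tfeb cells and 0.21 in siGFP cells. Por, the electron donor of cytochromes P450 and a source of lipid peroxides, differed with iron by 0.86 in siTfe3/Tfeb cells and 0.75 in siGFP cells. Tfrc, the transferrin receptor through which iron enters, gave 142 with iron and 209.9 without in siTfe3/Tfeb cells, against 274 with iron and 500.2 without in siGFP cells. Each iron array was below its untreated match. In siGFP cells the log2 difference of Tfrc with iron was -0.89, or -1.27, past 2-fold, when its probes were averaged. The siRNA difference of Tfrc was -0.86 with iron and -1.29 without, past 2-fold only without iron. Vkorc1l1, a vitamin K reductase, differed with iron by 0.64 in siTfe3/Tfeb cells and 0.40 in siGFP cells.

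All 11 regulators of these genes were measured, with a median difference with iron of 0.049 in siTfe3/Tfeb cells and 0.28 in siGFP cells. Atf3, a stress-induced factor, was 0.97 higher with iron in siTfe3/Tfeb cells (spot SD 0.10) and 1.27 higher in siGFP cells (spot SD 0.10). Thus 0 of 11 passed 2-fold in siTfe3/Tfeb cells and 1 of 11 in siGFP cells. With arrays centred on their median, Atf3 reached 1.03 and Maff 1.02 in siTfe3/Tfeb cells. Maff, a small Maf partner of Nrf2, differed with iron by 0.97 in siTfe3/Tfeb cells and 0.88 in siGFP cells. The transcript of Nrf2 itself, Nfe2l2, differed with iron by 0.31 in both. Ddit3, which encodes the stress factor CHOP, was 0.43 higher in siTfe3/Tfeb than in siGFP cells with iron and 1.22 higher without (spot SD 0.11 each), or 0.67 without iron when its probes were averaged. Atf4 RNA differed with iron by 0.0068 in siTfe3/Tfeb cells and 0.090 in siGFP cells, and between the siRNA groups by 0.37 with iron and 0.45 without.

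The genes whose 4 levels most resembled those of Slc7a11 and Gclm were found by distance, the root of the summed squared gaps between the levels after each gene was centred on its own mean. Slc7a11 and Gclm were the members whose levels spanned at least 1 on the log2 scale. Over the 4 arrays Ptgir, the prostacyclin receptor, lay nearest to Slc7a11 at a distance of 0.096, then Flt1, a VEGF receptor, at 0.12, Dnmt3l at 0.15 and Igf1 at 0.15. When all probes of a gene were averaged, the siRNA difference of Flt1 with iron went from 0.57 to -0.095. The iron difference in siGFP cells then fell below 2-fold for Dnmt3l (0.69) and Igf1 (0.71), as it did for Slc7a11 (0.71). Ptgir gave 1643 with iron and 524 without in siTfe3/Tfeb cells, against 1164 with iron and 537 without in siGFP cells, which is the order of arrays seen for Slc7a11. Nearest to Gclm were Plk2, a kinase, at 0.33, Lims2 at 0.34, Igf2bp2, an RNA-binding protein gene, at 0.41 and Fam20c, a secretory-pathway kinase, at 0.43. With 4 arrays many genes can share such a pattern, and the likeness is a description.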

How the data were processed

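Gene expression was measured in 4 cultures, 1 per group, on 1-colour Agilent SurePrint G3 arrays for mouse. Spots were quantified with Agilent Feature Extraction 12.0.3.1, per the submitters' processing notes. The processed intensity in the deposited scanner files has had background subtracted, per the file headers, and carries no scaling from array to array. A series matrix, also deposited, gives the authors' log2 values. Compared with the scanner signals, these are log2, centred on each probe's median, with the same direction, and its column medians were 0.0013 (siTfe3/Tfeb iron), -0.087 (siTfe3/Tfeb untreated), 0.022 (siGFP iron) and -0.0042 (siGFP untreated).

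From the scanner files, each array's 75th percentile over non-control probes was subtracted from log2 processed signal, with outlier spots left out and spots of a probe averaged, and the brightest probe stood for a gene (Python 3.11.15). Of the probes, 33767 were named by accession and 9866 by symbol through the RefSeq table of GRCm38.p6, used for names only, and 12972 stayed unnamed. A gene was measured in a comparison if well above background on its arrays, and called at 2-fold. The scripts were tested on simulated data. Alternatives included normexp (limma 3.58.1, R 4.3.3; offset 50), quantile normalization and the series matrix. The genes named are the 8 members, the 3 genes of each related list with the largest difference in any pairwise comparison, a few others of those lists chosen after their values were seen (Slc3a2, Nfe2l2, Atf4), and the 4 nearest patterns. The members and lists were chosen with earlier results of these data known.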

Additional observations from a re-analysis of the deposited data

Results flagged for a closer look

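Genes of the related lists differed with iron in opposite directions in the siRNA groups. The iron response in siTfe3/Tfeb cells minus that in siGFP cells was -1.73 for Cth (-1.06 in siTfe3/Tfeb cells and 0.68 in siGFP cells), -0.79 for Ddit3 (-0.51 and 0.28 in that order of cells), -0.59 for Chac1 (-0.31 and 0.28) and -0.57 for Slc25a40 (-0.27 and 0.30). Each group was 1 array, so these differences were not tested. Slc25a40, a mitochondrial glutathione carrier, had an iron response of 0.030 in siTfe3/Tfeb cells when all of its probes were averaged, so its opposite direction rested on the choice of probe.

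A probe designed on another transcript of Slc7a11, outside the main comparison, gave signal on the iron arrays, 33.4 in siTfe3/Tfeb cells and 24.3 in siGFP cells, and was not well above background on either untreated array.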

How the results depend on the processing

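With iron against none in siGFP cells, the count of the 8 genes at least 2-fold higher was 2, and it was 1 with normexp background correction and the 75th percentile, 1 with normexp and quantile normalization, and 1 with the mean of all probes. Slc7a11 was the gene lost, at 0.91, 0.90 and 0.71 in those settings, and the mean of all probes takes in the Slc7a11 probes that were not well above background. Over 9 alternatives, 30 of the 40 differences of the 8 genes kept their sign, and the other 10 stayed within 0.17 of 0 in size. Among these alternatives, dropping the background filter and keeping outlier spots could not change any value of the 8 genes. Averaging all probes could change only Slc7a11, Gss and Aifm2, the genes with more than 1 probe. With normexp and the 75th percentile, Cth with iron in siTfe3/Tfeb cells was -0.89, and the siRNA differences with iron were 0.79 for Cth and 0.76 for Cbs, below 2-fold. Ddit3 without iron was 0.67 with the mean of all probes.

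Calls over all genes depended on how dim signal was treated. Genes at least 2-fold higher and lower with iron in siTfe3/Tfeb cells numbered 227 and 64, against 145 and 17 with normexp and 581 and 1277 with no background filter. In siGFP cells they numbered 199 and 38, against 118 and 19 and 898 and 672. For the siRNA with iron they were 117 and 186, against 45 and 87 and 451 and 1540, and without iron 199 and 260, against 78 and 148 and 924 and 1055. For the difference of responses they were 39 and 48, against 11 and 8 and 818 and 1698. The share of higher calls was 78.0% with iron in siTfe3/Tfeb cells and 89.5% with normexp, 38.6% for the siRNA with iron and 53.6% with median centring, and 44.8% for the difference of responses and 63.2% with median centring.

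No paired analysis was possible because each group holds 1 array, and for the same reason no replicate was left out. The number of arrays limits the precision.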
